A study of Mus musculus with 2 samples.

Results

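The neuropeptide genes Sst, Vip, Npy, Cck, Crh, Tac1, Penk, Pdyn, Cort and Adcyap1 were examined for open chromatin in the right cerebral cortex of the mouse. They were chosen by name, as genes for peptide transmitters that cortical neurons use, and make up 10 of the 21938 protein-coding genes of the GENCODE M21 annotation. DNase-seq, which maps where the nuclease DNase I cuts accessible DNA, had been run on right cerebral cortex from adult females of strain B6CASTF1/J, aged 18 to 20 months. This strain is the first-generation hybrid of C57BL/6J and CAST/EiJ mice. The series held 1 group of 2 biological replicates, each a separate biosample, with no control group, treatment or second age. Both replicates carry the same donor identifier in the labels, so their spread may not cover the variation between animals. With 1 group of 2 libraries no test between conditions was possible, and every statement on a replicate difference compares 2 libraries only.

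Neuropeptides are made as longer precursors, cut by proprotein convertases in the secretory pathway, stored in dense-core vesicles and released to act on G-protein-coupled receptors. In the cortex many of them mark classes of GABA-releasing interneurons: somatostatin (Sst) and vasoactive intestinal peptide (Vip) define separate classes, neuropeptide Y (Npy), cortistatin (Cort), corticotropin-releasing hormone (Crh), substance P precursor (Tac1), enkephalin precursor (Penk) and dynorphin precursor (Pdyn) mark subsets, and cholecystokinin (Cck) and PACAP (Adcyap1) are also used by excitatory neurons. The tissue was bulk cortex, so openness in few cells and weak openness in many cells cannot be told apart.

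The Sst, Cck, Npy, Adcyap1 and Penk sequences that the results below turn on are shown first, all from the GRCm38.p6 reference of RefSeq, which carries the C57BL/6J letters and not those of the CAST/EiJ allele. The first is the cyclic AMP response element (CRE, TGACGTCA, in capitals) of the Sst promoter, shown because the other promoter windows searched had none. Its first base lies 48 bp before the RefSeq start site and 66 bp inside the longer first exon of GENCODE.
Sst promoter CRE, chr16:23890874-23890903, minus strand: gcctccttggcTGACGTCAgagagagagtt
The next ones are the strongest promoter regions found in both replicates at the 3 members with the highest promoter values, shown only outside transcribed untranslated exons. Capitals mark bases inside a footprint of both replicates (a short protected stretch within an open region) in Cck and Adcyap1, and the GC box GGGCGG in Npy, where no base shown was inside a footprint of both.
Cck promoter, chr9:121495695-121495840, minus strand: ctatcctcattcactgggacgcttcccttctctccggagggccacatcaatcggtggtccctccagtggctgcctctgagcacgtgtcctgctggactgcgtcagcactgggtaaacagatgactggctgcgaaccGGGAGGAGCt
Adcyap1 promoter region, chr17:93201581-93201880, plus strand: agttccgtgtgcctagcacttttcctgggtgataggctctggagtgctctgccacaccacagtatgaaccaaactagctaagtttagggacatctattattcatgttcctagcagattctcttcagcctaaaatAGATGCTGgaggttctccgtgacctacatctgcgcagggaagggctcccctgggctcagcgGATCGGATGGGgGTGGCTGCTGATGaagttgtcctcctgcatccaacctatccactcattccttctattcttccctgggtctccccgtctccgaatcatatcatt
Npy promoter, chr6:49822461-49822709, plus strand: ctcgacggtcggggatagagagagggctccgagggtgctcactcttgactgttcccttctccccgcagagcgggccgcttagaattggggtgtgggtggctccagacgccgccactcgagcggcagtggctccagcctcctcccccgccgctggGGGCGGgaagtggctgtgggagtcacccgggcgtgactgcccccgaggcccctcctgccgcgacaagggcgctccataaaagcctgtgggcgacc
The strongest distal region of all 10 genes lay 1.34 kb upstream of Penk, and capitals again mark footprints of both replicates.
Penk distal region, chr4:4140161-4140380, plus strand: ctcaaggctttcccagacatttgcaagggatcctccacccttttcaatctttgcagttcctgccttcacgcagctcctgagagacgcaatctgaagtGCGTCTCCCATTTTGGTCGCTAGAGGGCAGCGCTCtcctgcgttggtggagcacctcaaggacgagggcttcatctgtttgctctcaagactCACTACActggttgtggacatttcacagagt

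Each library came with a shorter and a longer list of peaks (open regions), each peak with a signal value; the sources used here do not state how it was scaled. The shorter lists held 86601 peaks in replicate 1 and 88482 in replicate 2, with median values of 0.721 and 0.999. All 1427 distinct values of replicate 1 below 2000 steps, and all 1048 of replicate 2, fell within 0.05 steps of a whole multiple of a library-specific step. If 1 step stands for 1 read, which no source states, the libraries held 2.01e+08 and 1.12e+08 reads, and exact 95% Poisson intervals on the steps cover counting error only. Markers of cortical excitatory neurons had a promoter peak in both replicates in 3 of 5 genes in the shorter lists and 5 of 5 in the longer, inhibitory neuron markers in 0 of 4 and 4 of 4, and the 3 genes of tissues other than cortex in none. In the shorter lists the counts were 3 of 4 for astrocytes, 2 of 4 for oligodendrocytes, 2 of 3 for striatum, 0 of 3 for microglia and 0 of 2 for endothelium.

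Promoter peaks of the neuropeptide genes were weak, and the 4 genes that had them in both replicates all stood below the median of genes with such a peak. A promoter peak, meaning a peak within 500 bp of any annotated start site, was present in both replicates at Cck, Adcyap1, Npy and Penk, 4 of the 10, beside 57.9% of all protein-coding genes. With start sites widened by only 100 bp the call at Adcyap1 was lost and its value fell from 0.920 to 0.241. With 2000 bp the count was 6 of the 10, adding Crh (mean value 1.79) and Cort (0.807). The share over all genes was not counted at that width. The call at Cck was lost when the peaks of both libraries had to share at least 50% of the smaller peak. Pdyn had a peak in replicate 1 only. Sst, Vip, Crh, Tac1 and Cort had none in either replicate. The median promoter value over all 10, with 0 for a gene without a peak, was 0.101, and the same median over all protein-coding genes was 1.13.

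Cck, the gene for cholecystokinin, had the strongest promoter peak of the 10. Its values were 1.01 in replicate 1 and 2.20 in replicate 2 (mean 1.61 ± 0.844, SD, n = 2), or 203 steps (95% interval 176 to 233) and 247 steps (217 to 280). The called peaks were offset, spanning chr9:121495549-121495740 in replicate 1 and chr9:121495681-121495840 in replicate 2, so they share only the bases around the 5′-most start site at 121495694. A footprint of identical bounds in both replicates, chr9:121495696-121495704, sits just upstream of that start site and is the capital stretch of the Cck promoter shown above. Even so, Cck stood at percentile 25.2 of the genes with a promoter peak in both replicates, whose median value was 2.71.

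Adcyap1, which encodes the peptide PACAP, came next with 0.850 and 0.990 (mean 0.920 ± 0.0989, SD, n = 2), at percentile 9.31. Its strongest peak was not at the 5′ end of the gene. It covered chr17:93201561-93201900, inside an intron and 176 bp from the internal start site at 93202076. A weaker shared peak at chr17:93199276-93199578, with 0.577 and 0.642, lay over the first exon. The intronic peak held a footprint with the same bounds in both replicates, chr17:93201715-93201722, and a longer one at chr17:93201776-93201800 in replicate 1.

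Npy, the gene for neuropeptide Y, had 0.477 and 0.687 (mean 0.582 ± 0.148, SD, n = 2). Penk, the enkephalin precursor, had 0.582 and 0.571 (mean 0.576 ± 0.00767, SD, n = 2). These placed Npy at percentile 2.51 and Penk at percentile 2.47 of genes with a promoter peak in both replicates, near the bottom of that range. The Npy peak lay over the GC-rich stretch just upstream of the single annotated start site. The Penk peak lay at the upstream start site (4138819), within an intron of the noncoding gene A830012C17Rik, which is transcribed from the opposite strand, and DNase-seq cannot tell which of the 2 transcripts a shared open region belongs to.

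Pdyn, the dynorphin precursor, had a peak of 0.403 (81 steps, 95% interval 64.3 to 101) in replicate 1. In replicate 2 its promoter peak appeared in the longer list only, at 0.383 (43 steps, 31.1 to 57.9). The longer lists also held peaks of both replicates at Cort, the gene for cortistatin, with 0.378 and 0.428. With the longer lists 6 of the 10 were open in both replicates at the promoter, beside 62.4% of all protein-coding genes. The remaining peaks were of 3 genes each in 1 library only: Sst at 0.239 and Vip at 0.194 in replicate 1, and Crh at 0.428 in replicate 2. Tac1, the substance P precursor, had no promoter peak in any of the 4 lists.

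**Figure D1:**
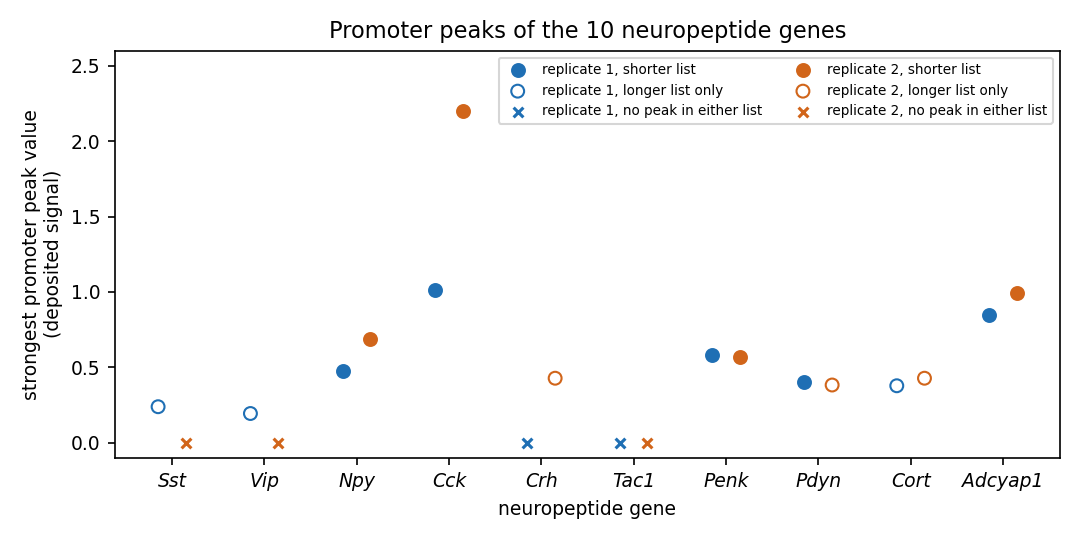
Strongest promoter peak value (vertical axis, deposited signal) of each neuropeptide gene (horizontal axis) in replicate 1 (blue) and replicate 2 (orange). Filled points are peaks of the shorter list, open points are peaks found in the longer list only and crosses at 0 mark no peak; Cck is the highest in both replicates (1.01 and 2.20) and Tac1 has no peak in any list.

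The deposited false discovery rates of the cut rate, listed only below 0.05, separate the weak promoters further. The lowest rate in the promoter was 1.78e-09 in replicate 1 and 1.77e-13 in replicate 2 for Cck, and 1.98e-09 and 9.01e-10 for Adcyap1. Npy reached 9.70e-06 and 4.30e-09, Penk 2.78e-05 and 0.000186, Pdyn 0.000356 and 0.00122, and Cort 0.000809 and 0.00573. At Sst the only listed bases, 135 of 1001, were in replicate 1 with a lowest rate of 0.00897. Vip had a lowest rate of 0.0395 in replicate 1, Crh 0.0118 in replicate 2 and Tac1 0.0408 in replicate 2 over 4 of its 3214 promoter bases. Sst, Vip, Crh and Tac1 thus each had listed promoter bases in only 1 of the 2 libraries. Over all 10 genes the median percent of promoter bases listed was 18.6 in replicate 1 and 17.6 in replicate 2, close to the 17.4 and 20.1 over all protein-coding genes.

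Base composition of the promoters was set beside these values, because CpG-rich promoters are open in most tissues. RefSeq promoter windows (250 bp before to 50 bp after a start site) were found for 8 of the 10 genes, not for Crh and Penk. Among all genes with a window, a promoter peak in both replicates was present in 92.7% of those whose highest CpG observed-to-expected ratio was at least 0.75, in 79.0% from 0.5 to 0.75 and in 36.2% from 0.25 to 0.5. Tac1 had a ratio of 1.01, the highest of the 8, and had no promoter peak. Of the 4 genes between 0.5 and 0.75, Npy (0.693) and Adcyap1 (0.660) had a peak in both replicates, and Sst (0.707) and Cort (0.548) had none in the shorter lists. The Adcyap1 windows, at its 5′ end, held no peak themselves. Its weaker shared peak over the first exon lay just outside them, and its strongest lay at the internal start site, for which there was no window. Cck, with the strongest peak, had a ratio of only 0.379, and Pdyn and Vip had 0.425 and 0.310.

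The same windows were searched on both strands for the CRE, TGACGTCA, the site through which cyclic AMP signalling acts on the somatostatin gene. It was present in the Sst window alone among the 8 genes, and in 2.31% of all windows. Its shorter form TGACG, which every CRE also holds, was present in 7 of the 10 windows of these 8 genes and in 24.2% of all windows. These 7 windows belonged to 6 of the 8 genes, because overlapping windows of Adcyap1 were counted separately. In distal shared regions TGACG occurred in 2 of 37 (5.41%) beside 11.8% of all. None of the 37 distal regions held a CRE, which 0.557% of all distal shared regions did, and none of the promoter regions did. A letter match is a description and does not show binding.

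Most distal open regions of these genes lay around Cck, Adcyap1 and Pdyn, and 2 genes had none. A distal region was a region with overlapping peaks in both replicates, more than 500 bp from every annotated start site, and was given to the protein-coding gene whose start site was nearest, up to 100 kb away. The 10 genes had 37 such regions. At least 1 was present at 8 of them, beside 52.7% of all protein-coding genes, and the median was 2.5 per gene beside 1.00. The stretch of genome nearest to these genes was also longer, with a median of 123 kb against 45.0 kb, and per 100 kb the counts were 2.97 for the 10 genes and 2.12 for all. By gene this was 10.6 at Cck, 6.63 at Pdyn, 4.43 at Adcyap1 and 2.39 or less at each of the others. When noncoding start sites could also take a region, the count fell from 37 to 18, at the same 8 genes. Cck had 10, Adcyap1 9, Pdyn 6, Npy 4, Crh 3, Sst 2, Penk 2 and Vip 1. Tac1 and Cort had none, Cort within a stretch of 11.3 kb that is nearest to it and Tac1 within 165 kb. Of the 37 regions 26 lay upstream and 11 downstream, 32 between genes, 4 in introns and 1 in an exon.

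**Figure D2:**
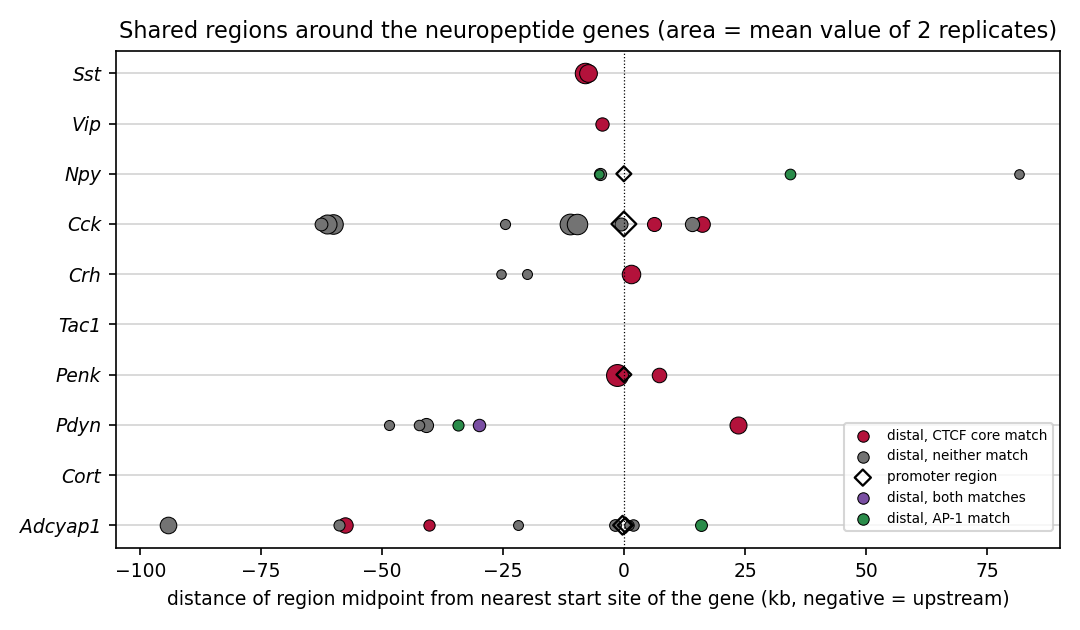
Shared open regions of each neuropeptide gene (rows) by the distance of their midpoint from the nearest start site of that gene (horizontal axis, kb, negative upstream). Circles are distal regions, coloured by the letters they hold, open diamonds are promoter regions, and the area is the mean value of both replicates; the largest circles are at Penk, Cck and Sst, and Tac1 and Cort have none.

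At each of the 8 genes with a distal region, the strongest distal region had a higher value than the strongest promoter peak in both replicates. A missing promoter peak counted as 0, so this was fixed in advance at Sst, Vip and Crh, and at Pdyn in replicate 2. The distal value was higher at 45.0% of all genes with a distal region, which likewise include genes without a promoter peak. Among those that also had a promoter peak in both replicates it was higher at 21.1%, whereas Npy, Cck, Penk and Adcyap1 all showed it. The strongest was taken from 10 distal regions at Cck, 9 at Adcyap1, 4 at Npy and 2 at Penk, beside a median of 1.00 over all protein-coding genes. The Poisson intervals on the steps of promoter and distal peak overlapped at Npy in both replicates. They also overlapped at Adcyap1 in replicate 1 and at Cck in replicate 2, but not at Penk. Penk was the clearest case: the region 1.34 kb upstream had 1.38 in replicate 1 and 3.64 in replicate 2, beside promoter values of 0.582 and 0.571. It stood at percentile 95.7 of all distal shared regions. This contrast depends on the promoter window: within 2000 bp of a start site the same region counts as the promoter peak of Penk, whose mean value then is 2.51 in place of 0.576, and that of Crh is 1.79 in place of 0. Npy showed the smallest gap, with 0.547 and 0.999 at its strongest distal region, 4.81 kb upstream, beside 0.477 and 0.687 at the promoter.

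**Figure D3:**
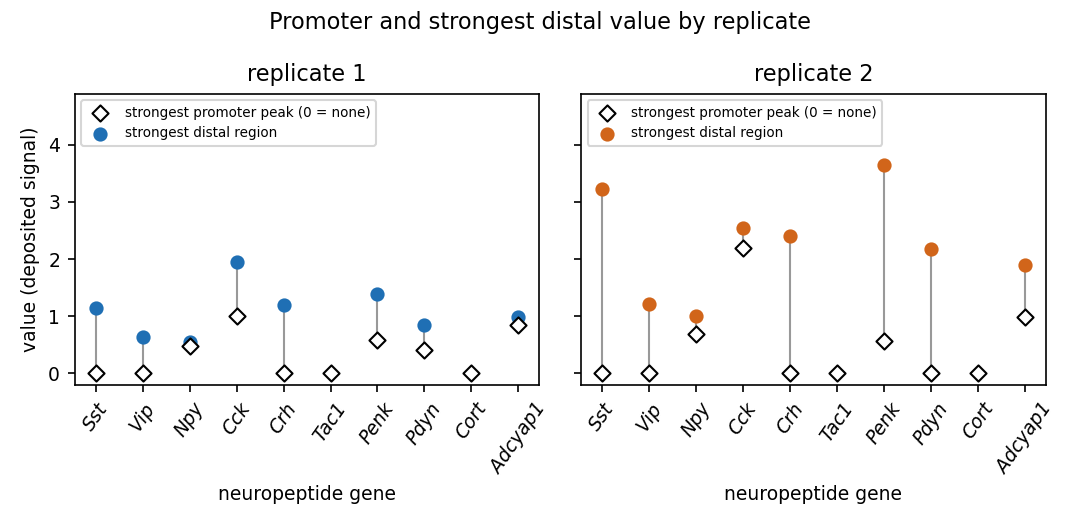
Strongest promoter peak (open diamonds, 0 where there was none) and strongest distal region (filled circles) of each neuropeptide gene, as deposited signal, in replicate 1 (left) and replicate 2 (right). Circles lie above diamonds at all 8 genes with a distal region, of which Sst, Vip and Crh, and Pdyn in replicate 2, had no promoter peak. Among genes with a promoter peak in both replicates the gap is widest at Penk in replicate 2.

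Sst and Vip, which mark separate interneuron classes, had no shared promoter peak but did have shared regions nearby. At Sst there were a pair of regions in close neighbourhood, chr16:23898961-23899160 at 8.0 kb upstream with 1.15 and 3.23, and chr16:23898321-23898540 at 7.36 kb upstream with 1.25 and 2.06. They were the only shared distal regions of Sst and stood at percentiles 93.1 and 84.1 of all distal regions. The single region of Vip lay 4.58 kb upstream and had 0.641 and 1.21. Crh, which like Sst and Vip had no promoter peak in the shorter lists, had its strongest region inside the gene, chr3:19693961-19694200, within the exon that carries its coding sequence and 1.20 kb downstream of the start site, with 1.19 and 2.40. The other Crh regions, 20.0 and 25.3 kb upstream, were weaker, with 0.393 and 0.642, and with 0.512 and 0.428. Of all genes without a promoter peak in either replicate, 36.2% had a distal region, and of the 5 neuropeptide genes without such a peak Sst, Vip and Crh did.

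Cck had the densest surroundings, with 10.6 distal regions per 100 kb, and 2.17% of all protein-coding genes had as many regions or more. Its regions formed groups. A pair at 9.73 and 11.1 kb upstream had 1.95 and 2.43, and 1.95 and 2.54. A trio 60.0 to 62.6 kb upstream had 1.97 and 2.02 at its nearest member, 1.63 and 2.15 at the next and 0.775 and 0.936 at the farthest. Downstream, 3 regions at 6.0, 13.9 and 16.0 kb had between 0.850 and 0.984 in replicate 1 and between 1.07 and 1.58 in replicate 2. The upstream pair and the trio differed little between the replicates, with log2 ratios of replicate 1 to replicate 2 from -0.40 to -0.04.

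Adcyap1 lies in a gene-poor stretch, with the next protein-coding start site 1532 kb or more from each of its regions. Its strongest distal region was also the farthest, 94.2 kb upstream at chr17:93104581-93104840, with 0.984 and 1.90. Inside the gene, regions 0.906 and 1.67 kb downstream of a start site had 0.442 and 0.490, and 0.417 and 0.954. The 6 regions of Pdyn lay on both sides. The strongest, chr2:129675021-129675200 with 0.845 and 2.17, was 23.5 kb downstream of the start site. The other 5 lay 29.9 to 48.6 kb upstream and ranged from 0.432 to 0.939 in replicate 1 and from 0.553 to 1.14 in replicate 2. At Npy 2 neighbouring regions lay 4.81 and 5.05 kb upstream, and 2 more lay 34.2 and 81.5 kb downstream with 0.716 and 0.473, and 0.537 and 0.428.

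Footprints in several of the strongest distal regions held a match to the core of the motif bound by CTCF, a zinc-finger protein known for its role at chromatin loop anchors and insulators. The match, to 12 positions and searched on both strands, was added after the footprints had been seen. It is counted as lying in footprints of both replicates where at least 50% of its bases did in each. This was so for 10 matches at 7 of the 10 genes. By region it was so in 9 of the 11 distal regions with a core and no TGANTCA, the AP-1 motif described below (81.8%). Over all distal shared regions of that kind the share was 79.6%, so the share at these genes was near the background. Of the 10 matches, 9 are shown here with 12 bases on either side and the matched letters in capitals, read on the strand of the motif. The strongest distal regions of Penk, Sst, Crh and Pdyn are among them. The match not shown lies in the only distal region of Vip, 4.58 kb upstream.
Sst, 7.36 kb upstream, chr16:23898427-23898462, minus strand: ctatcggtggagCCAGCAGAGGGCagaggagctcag
Sst, 8.0 kb upstream, chr16:23899043-23899078, minus strand: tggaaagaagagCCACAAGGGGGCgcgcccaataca
Cck, 16.0 kb downstream, chr9:121477442-121477477, plus strand: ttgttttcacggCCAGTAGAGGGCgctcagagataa
Crh, coding exon, chr3:19694052-19694087, minus strand: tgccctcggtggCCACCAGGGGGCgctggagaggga
Penk, 7.18 kb downstream, chr4:4131189-4131224, minus strand: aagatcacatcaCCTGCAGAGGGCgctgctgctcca
Penk, 1.34 kb upstream, chr4:4140262-4140297, plus strand: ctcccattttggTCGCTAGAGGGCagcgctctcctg
Pdyn, 23.5 kb downstream, chr2:129675068-129675103, plus strand: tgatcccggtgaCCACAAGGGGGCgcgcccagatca
Pdyn, 23.5 kb downstream, chr2:129675126-129675161, minus strand: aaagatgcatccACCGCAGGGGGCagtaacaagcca
Adcyap1, 57.6 kb upstream, chr17:93141308-93141343, minus strand: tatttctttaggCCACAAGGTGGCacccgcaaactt
The capitals share an AG followed by A or G, G or T, and GGC because the search asked for these letters. The flanks were not compared. The Crh match lies in coding sequence. The Pdyn region holds a pair of matches on opposite strands.

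Of the 37 distal regions of the neuropeptide genes 12 held a CTCF core, or 32.4%, beside 17.1% of all distal shared regions. The strongest distal region held it at 5 of 8 genes, or 62.5%, beside 28.4% of all genes with a distal region. Cck, Npy and Adcyap1 were the exceptions and the upstream Cck pair and trio held no match either. Because the motif was chosen on these regions, their count does not support it.

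A second group of sites held the AP-1 motif, TGANTCA, the site of Fos and Jun proteins, with N any base. It occurred in 5 of the 37 distal regions (13.5%), beside 18.0% of all distal shared regions, and in none of the promoter regions. In footprints of both replicates lay 2 matches, for which no share over all regions was counted. They are shown with 12 bases on either side and the AP-1 letters in capitals.
Npy, 34.2 kb downstream, chr6:49856983-49857013, plus strand: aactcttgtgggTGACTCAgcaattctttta
Pdyn, 29.9 kb upstream, chr2:129729850-129729880, plus strand: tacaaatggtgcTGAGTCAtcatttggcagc
The E-box CAGATG, a site of neuronal bHLH factors, occurred in 14 of the 37 distal regions (37.8%), beside 31.3% of all distal shared regions. It touched footprints of both replicates in the Adcyap1 regions 94.2 and 21.8 kb upstream, at the Pdyn region 40.7 kb upstream and at the Npy region 81.5 kb downstream. The GC box GGGCGG occurred in 3 of the 37 (8.11%) beside 9.99%, a share near the background. None of these shares was tested. All motifs were searched on both strands of the whole region.

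Footprints were present in most regions of these genes. At least 1 footprint of each library lay in 36 of the 42 regions, or 85.7% (exact binomial 95% interval 71.5 to 94.6), and in 89.3% of all shared regions. The footprints of the 2 libraries need not share bases for this count, and they overlapped in fewer of these regions. Among distal regions alone the shares were 83.8% and 89.8%. Per kb of region there were 9.97 footprints in replicate 1 and 10.4 in replicate 2, beside 11.6 and 11.5 over all shared regions. At promoters, 4 of the 10 genes had a footprint of each library within the window (Npy, Cck, Penk and Adcyap1), beside 59.9% of all protein-coding genes. Among these 4, footprints of the 2 libraries overlapped only at Cck and Adcyap1. Sst, Pdyn and Cort had promoter footprints in replicate 1 only, with 1, 4 and 2.

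Most regions of the neuropeptide genes had higher values in replicate 2, by a gap that was larger in some classes of region than in others. The median log2 ratio of replicate 1 to replicate 2 was -0.54 (SD 0.54) over the 42 regions and -0.44 (SD 0.50) over all shared regions, and 37 of the 42 (88.1%) were higher in replicate 2, beside 84.5% of all. Distal regions with a CTCF core and no AP-1 letters had a median of -1.01 (11 regions, -1.79 to -0.12), and those with neither had -0.43 (21 regions, -1.19 to 0.33). The 4 with AP-1 letters only had a median of 0.11, from -0.55 to 0.60. Over all distal shared regions the medians were -1.08 with the CTCF core (7350 regions, SD 0.53), -0.35 with neither (30621, SD 0.48) and -0.21 with AP-1 only (7785, SD 0.42). The groups overlap widely, and the difference between the libraries in these classes was not tested.

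Single regions show the same spread. The Adcyap1 region 40.3 kb upstream, with a CTCF core, had 0.298 and 1.03, a ratio of replicate 2 to replicate 1 of 3.47. The regions at 8.0 kb from Sst and 57.6 kb from Adcyap1 each had a ratio of 2.81, the Penk region 1.34 kb upstream 2.64 and the strongest Pdyn region 2.56. The regions with a higher value in replicate 1 were at Npy (34.2 and 81.5 kb downstream), Crh (25.3 kb upstream), Pdyn (34.3 kb upstream) and the promoter of Penk. The order of the 8 genes by their strongest distal region was therefore not the same in the 2 libraries, with Cck highest in replicate 1 and Penk in replicate 2.

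**Figure D4:**
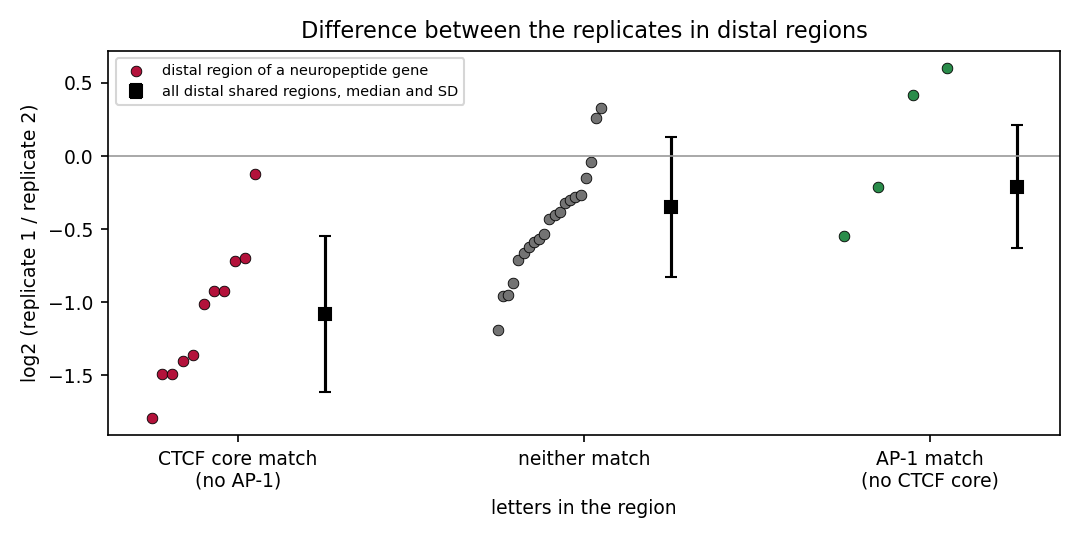
Log2 ratio of replicate 1 to replicate 2 (vertical axis) of the distal regions of the neuropeptide genes (circles) by the letters they hold, beside the median and SD of all distal shared regions of that class (squares with bars). Circles with a CTCF core lie between -1.79 and -0.12, and those with AP-1 letters between -0.55 and 0.60.

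Genes that act with these peptides were compared by the same measures. The genes that make, sort and release peptides had open promoters: 14 of 15 processing and granule genes were called in both replicates, with a median value of 2.58. By the mean of both replicates the highest were Scg3 (2.99 and 5.30), which sorts granule cargo, Cpd (3.49 and 4.43), a carboxypeptidase, and Vgf (3.04 and 4.27), a granule protein. Crhbp, which binds corticotropin-releasing hormone, was the exception, with no peak in any list. Receptors for these peptides had a peak in both replicates at 11 of 21 genes in the shorter lists and 17 of 21 in the longer. Vipr1 (1.99 and 2.85), Sstr2 (1.19 and 2.43) and Adcyap1r1 (1.24 and 1.98) were the highest by the mean of both replicates, and Vipr2 and Sstr5 had none in any list. Neuropeptide genes best known from the hypothalamus had a peak in both replicates in 1 of 12 (Ghrh, 0.790 and 0.838) with the shorter lists and 2 of 12 with the longer, and Avp and Oxt had none.

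Genes of the GABA system, which most of the peptide-releasing interneurons share, gave 2 of 6 in the shorter lists and 6 of 6 in the longer, highest at Abat (3.24 and 4.36), which breaks GABA down, with weaker peaks at the GABA-synthesising genes Gad1 (0.512 and 0.785 in the longer lists) and Gad2 (0.338 and 0.606). Transcription factors of interneurons gave 5 of 14 and 10 of 14, among them Maf (1.35 and 1.32) and Sox6 (0.746 and 1.48), and Nr2f2 and Npas1 had none. In both lists, as at Pdyn and Cort, several promoter peaks were found in the longer list only, so the count depends on the list.

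**Figure D5:**
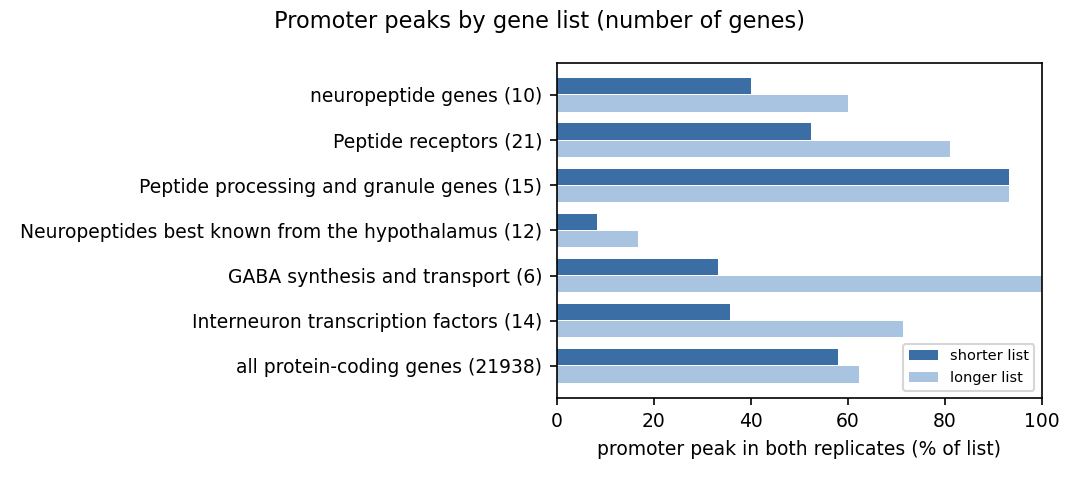
Percent of the genes of each list (rows, number of genes in brackets) with a promoter peak in both replicates in the shorter (dark bars) and longer (light bars) peak lists. The neuropeptide genes stand at 40.0% and 60.0%, the processing and granule genes at 93.3% in both, and all protein-coding genes at 57.9% and 62.4%.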

How the data were processed

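DNase-seq of 2 libraries of 1 group was analysed from the processed files. Per the labels the assembly is mm10; aligner, peak caller and footprint caller were not given in the sources used here. For each library the authors deposited a shorter and a longer peak list with a signal per peak, footprints at a false discovery rate (q-value) of 0.01, and intervals whose q-value of the cut rate was below 0.05. The shorter lists were used throughout and the longer ones as a stated alternative. Start sites came from GENCODE M21 and sequences from RefSeq's GRCm38.p6; 0 peaks ran past a chromosome end. Peaks of both libraries that overlapped by at least 1 bp were merged, and a region with a peak of each is called shared; its value in a library is that of its strongest peak. Distances run from the nearer edge of a region. A few items are not reported here. Members and lists were chosen with earlier results of these data known. Named genes are all 10 members and, of each companion list, up to 3 with the highest values and up to 2 without a peak. Interval and motif code (Python 3.11.15, NumPy 2.4.6, SciPy 1.17.1, pysam 0.24.0) was tested on simulated data. Peak list, peak strength, promoter window, distance limit, gene types, overlap, start site set and left-out replicates were varied.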

Additional observations from a re-analysis of the deposited data

How the results depend on the processing

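Of 79 recomputed values of the main results, 64 stayed within their margin (counts within 1.5 times, other values within their interval or the SD between replicates). Keeping the stronger 50% of peaks left a promoter peak in both replicates at 1 gene, Cck, or at 2 with the longer lists. It also gave 15 distal regions, a median of 1.00 per gene and a median log2 ratio of -0.71. In that setting 100% of the regions held at least 1 footprint of each library. The longer lists gave 58 distal regions, a median of 5.0 per gene and a median promoter value of 0.398. A 2000 bp window gave a median promoter value of 0.694 and 6 genes with a promoter peak in both replicates, Crh and Cort being added. Noncoding start sites as takers gave 18 regions and a median of 1.00. Without replicate 1 or replicate 2 in turn, the median per gene was 4.50 or 4.0, and the promoter footprint count was 4 or 7, since presence in both was no longer asked. The start sites of the GENCODE basic set, chosen after seeing the data, left 4 genes with a promoter peak in both replicates but lowered Adcyap1 from 0.920 to 0.609; a 100 bp window left 3 genes, without Adcyap1, and so did the stricter overlap, without Cck. The cause of these shifts was not tested. No CRE was found in the regions under any setting. No paired analysis was possible because there is 1 group. With 2 libraries and a signal of unstated scaling, weak promoters such as those of Sst, Vip and Crh were near the limit of what was called.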

Other observations

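Regions of the neuropeptide genes that were called in 1 library only are not part of the counts above. There were 10 distal regions found in replicate 1 alone and 11 found in replicate 2 alone, beside the 37 found in both. Npy had 4 of those found in replicate 2 alone and 1 of those found in replicate 1 alone. Tac1, which had no shared distal region in the shorter lists, had 2 regions in replicate 1 alone, and 3 shared regions in the longer lists. In the longer lists Npy had 10 shared distal regions where the shorter lists held 4, while Cck had 10 in both, so the order of the genes by number of distal regions depends on the list.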
